A study of Mus musculus with 12 samples.

Results

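The genes described here are p53 (Trp53) and 9 genes known as its direct targets, Mdm2, Ccng1, Trp53inp1, Cdkn1a, Sesn1, Phlda3, Zmat3, Eda2r and Aen. They were chosen by gene symbol. No measured value entered that rule, but earlier results of these data were known when the genes were chosen. All 10 of them were found among the 17875 genes of the deposited tables. Messenger RNA had been sequenced from subcutaneous colorectal tumours grown in mice, in 12 libraries. The control group (3 libraries) carried the tumour and had neither stress nor treatment. The stress group (3 libraries) carried the tumour under chronic stress. The low-dose and high-dose groups (3 libraries each) carried the tumour under the same chronic stress and were given Xiaochaihu decoction, a Chinese herbal formula made from several plants, at a low or a high dose. So the tumour was shared by all 4 groups and the stress by 3 of them, and no group received the decoction without stress. The labels give no dose in numbers, tumour cell line, mouse strain, sex, age or kind of stressor, and their genotype field only repeats the sample name.

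p53 is a transcription factor that is held at a low protein level by Mdm2, the ubiquitin ligase that marks it for degradation, and is released from it after DNA damage, oncogene activation or ribosomal stress. Control is therefore mainly at the level of the protein, and the messenger RNA of its targets is commonly read as a sign of its activity. The targets stop the cell cycle, restrain growth signalling, promote cell death or feed back on p53, and the gene is often mutated in colorectal cancer. Whether the tumour cells here carried an intact Trp53 is not given in the labels.

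RefSeq promoter windows of build GRCm38.p6, from 250 bases before to 50 bases after a start of transcription, were found for 8 of the 10 genes, in 11 windows. Trp53inp1 and Zmat3 had no entry. The p53 response element was searched in them by its consensus of a pair of decamers without a spacer, 20 bases in all, with the central C and G of each decamer required and at most 3 mismatches. That consensus reads the same on both strands. Such a match lay in 453 of all 32851 windows (1.379%), belonging to 441 of 27025 genes (1.6318%), and in windows of 5 of these 8 genes. The limit of 3 mismatches was chosen after seeing the data, and Sesn1, Trp53 and Aen lie at that limit. These shares are therefore a description, and no excess was tested. The sequences are shown because they set the best known p53 target, Cdkn1a, beside genes of the same list with the same or a poorer match. Capitals mark the 20 matching bases, and each sequence reads 5′ to 3′ on the strand of its gene.

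Cdkn1a (1 mismatch, chr17:29090908-29090967, plus strand): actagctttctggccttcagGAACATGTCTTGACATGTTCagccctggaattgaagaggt
Ccng1 (1 mismatch, chr11:40755442-40755501, minus strand): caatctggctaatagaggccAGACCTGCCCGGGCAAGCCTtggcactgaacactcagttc
Sesn1, second start (3 mismatches, chr10:41887246-41887305, plus strand): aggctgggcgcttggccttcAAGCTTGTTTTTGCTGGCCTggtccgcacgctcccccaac
Trp53 (3 mismatches, chr11:69580264-69580323, plus strand): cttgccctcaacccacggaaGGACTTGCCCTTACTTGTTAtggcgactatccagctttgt
Aen (3 mismatches, chr7:78895937-78895956, plus strand): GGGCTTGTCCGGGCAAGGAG

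At most 1 mismatch was found in 22 of the 32851 windows (0.06697%), and Cdkn1a and Ccng1 were among them. The best stretches in the windows of Phlda3, Mdm2 and Eda2r had 5, 9 and 9 mismatches, which says only that these letters are not in those 300 bases. The match of Cdkn1a belongs to its start at 29090979, and the window of its other start, at 29093769, had 7 mismatches. For Sesn1 the window of the start at 41810574 had 8 mismatches. A match is a description of sequence and was not tested as a binding site. All 10 genes are annotated as protein coding. Trp53 lies on chromosome 11 from 69580348 to 69591873, Cdkn1a on chromosome 17 from 29090979 to 29100722, Sesn1 on chromosome 10 from 41810574 to 41908436, and Eda2r on chromosome X from 97333837 to 97377234.

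Total counts ran from 16734741 to 17950195 per library, with 15476 to 15775 genes above 0. The labels leave it unsaid whether replicates are different mice, so the spread behind each p-value is that of the libraries and may be partly technical. The labelled tissue was checked against 11 markers of colorectal epithelium: Krt18 was at 0 in 11 of 12 libraries, Krt8 in 7 and Krt20 in 8, Epcam ran from 0 to 0.84 TPM and Cdh1 from 1.71 to 6.46 TPM, while Sox9 stood at 46.2 to 92.4 TPM. The defining keratins of that epithelium were thus at or near 0. Skeletal muscle transcripts set 3 libraries of 3 groups apart: control replicate 1, low-dose replicate 3 and high-dose replicate 2. Levels below are CPM, library-size scaled counts with TMM factors, except where genes are compared with each other, which is done in TPM, a unit that is also scaled for transcript length. Differences are given on the log2 scale as fold changes, with a standard error (SE), from edgeR's quasi-likelihood test with Benjamini-Hochberg adjustment over 13453 genes, 2-sided.

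Trp53 itself was abundant. Its mean level was 447 TPM over the 12 libraries, rank 291 of 17875 genes and above 98.4% of them. Phlda3 followed with 177 TPM, Cdkn1a with 71.3, Ccng1 with 45.3, Mdm2 with 31.5, Sesn1 with 20.2, Aen with 15.0, Zmat3 with 6.23, Eda2r with 3.49 and Trp53inp1 with 1.84 TPM. In this order the ranges over libraries did not overlap between Trp53 and Phlda3, between Phlda3 and Cdkn1a, or between Aen and Zmat3. The other neighbours overlapped: Cdkn1a ran from 45.0 to 110 TPM and Ccng1 from 34.4 to 57.1 TPM, and Sesn1, from 9.07 to 34.1 TPM, spanned the levels of both Mdm2 and Aen. A processed pseudogene of Trp53 lies on chromosome 17 and has no row in the tables, so reads could be shared with it and the level of Trp53 is uncertain to that extent. Sesn1 overlaps another annotated gene on the same strand, and Cdkn1a one on the opposite strand.

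**Figure D1:**
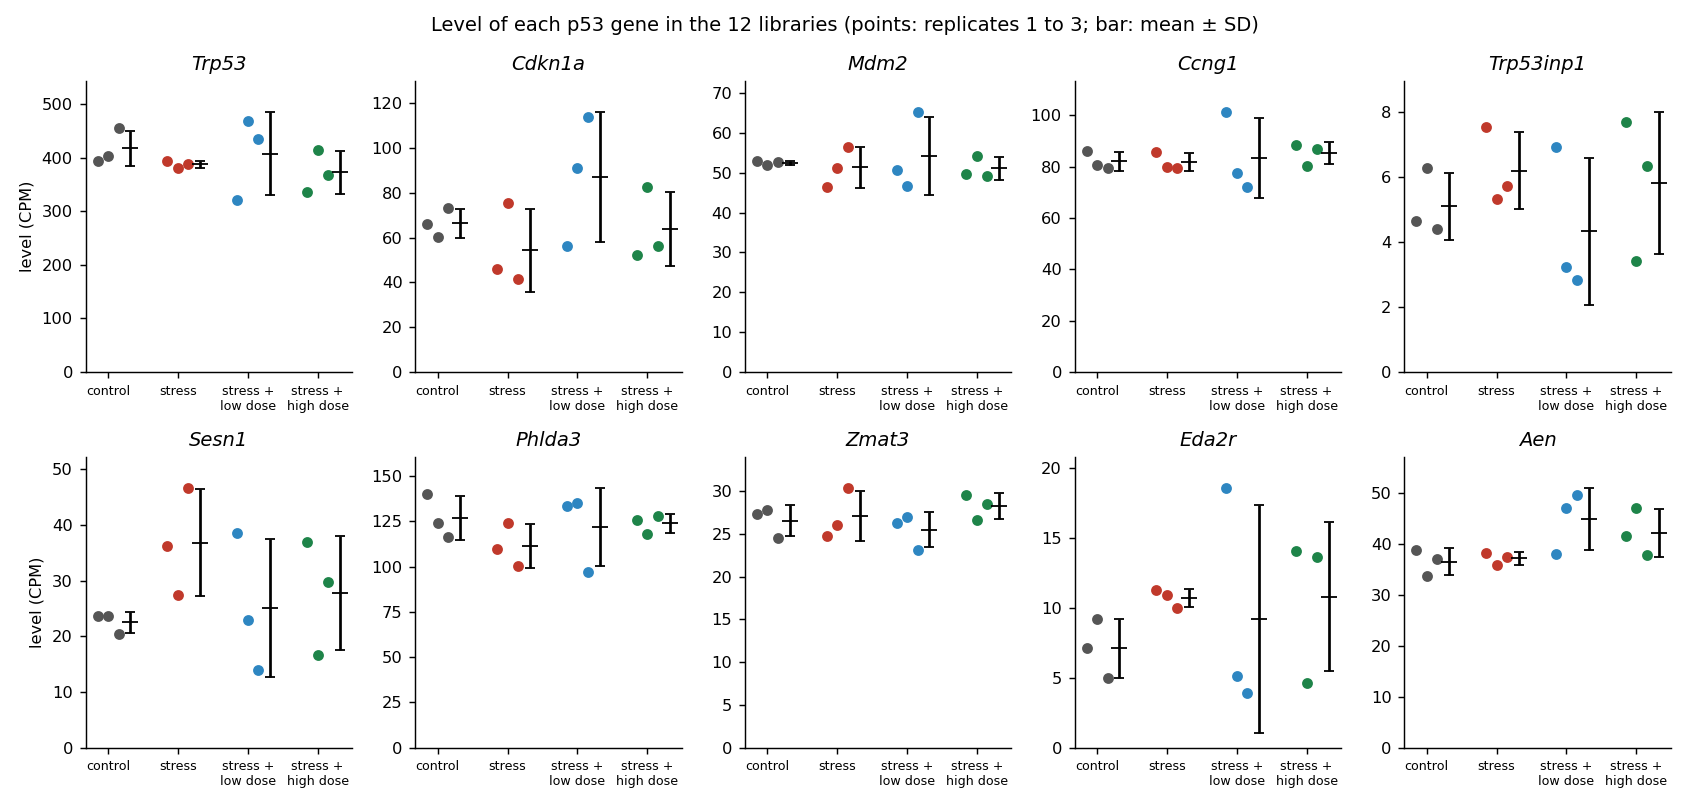
Level of each of the 10 genes in the 12 libraries, in CPM on axes that start at 0. Points are libraries in the order of their replicate numbers and bars are the group mean ± SD (n = 3). Zmat3 covers the narrowest range (1.31-fold) and Eda2r the widest (4.75-fold), with low-dose replicate 1 highest and low-dose replicate 3 lowest for Eda2r.

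None of the 10 genes passed the test in any comparison. By edgeR 0 of 10 had an adjusted p under 0.05 in each of the 6 comparisons between groups and in the joint test over the 4 groups, and the background in each of these was 0% of the 13453 genes. DESeq2 and limma-voom also called 0 of the 10, where DESeq2 called 95 genes of the whole table between low dose and stress. At an unadjusted p under 0.05, edgeR had 0 of the 10 between stress and control (2.85% of all genes), 2 between low dose and stress (13.4%), 0 between high dose and stress (1.42%), 0 between the doses (6.39%), 1 between low dose and control (13.2%) and 0 between high dose and control (1.04%). The 10 genes did not move one way: 5 were higher and 5 lower under stress than in controls, and 6 were higher and 4 lower in each of the other 5 comparisons. Their median log2 fold change lay between 0.01 and 0.07, beside medians of all genes between -0.004 and 0.006. The comparisons share groups, so their values are not independent of each other.

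Trp53 stood at 394.4, 402 and 455 CPM in the control libraries and at 393.6, 381 and 387 CPM under stress. The low-dose libraries had 321, 467 and 435 CPM and the high-dose libraries 336, 414 and 367 CPM. Every stress library was below every control library, by a very small margin between the closest pair, whereas low-dose replicate 1 was the lowest and low-dose replicate 2 the highest of all 12. In TPM the highest was control replicate 3 with 517, and low-dose replicate 2 had 435. The mean was 421 TPM at the low dose and 450 TPM under stress, so the direction between these groups depended on the unit. The difference of stress from control was -0.11 (SE 0.14, 95% interval -0.41 to 0.19, adjusted p = 0.9999). Low dose differed from stress by 0.07 (SE 0.14, interval -0.22 to 0.37, adjusted p = 0.833), and high dose from stress by -0.06 (SE 0.14, interval -0.36 to 0.24, adjusted p = 0.9998). In bulk tissue, fewer cells of a type and less RNA per cell cannot be told apart.

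Among the genes that feed back on p53, Mdm2, its ligase, was the steadiest in the control group, with 52.9, 52.0 and 52.8 CPM. Stress libraries had 46.4, 51.3 and 56.6 CPM of Mdm2, low-dose libraries 50.7, 46.8 and 65.2 CPM and high-dose libraries 49.8, 54.3 and 49.1 CPM. All groups overlapped, and low-dose replicate 3 was the one library above 60.

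Ccng1, cyclin G1, which brings a phosphatase to Mdm2, stood at 86.2, 80.8 and 79.3 CPM in controls and at 85.9, 79.7 and 79.6 CPM under stress. Low-dose libraries had 101, 77.5 and 71.9 CPM, the highest and the lowest of all 12, and high-dose libraries 88.4, 80.4 and 86.8 CPM. The groups overlapped in every comparison.

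Zmat3, an RNA-binding zinc finger protein, ranged over 1.31-fold, the narrowest of the 10, from 23.1 CPM in low-dose replicate 3 to 30.4 CPM in stress replicate 3. Control libraries had 27.3, 27.8 and 24.5 CPM, the other stress libraries 24.8 and 26.1, the other low-dose libraries 26.3 and 27.0, and high-dose libraries 29.6, 26.6 and 28.5 CPM. Over all 6 comparisons the log2 fold changes of Mdm2, Ccng1 and Zmat3 lay between -0.09 (Zmat3, low dose against stress) and 0.15 (Zmat3, high dose against low dose). No 95% interval of these 3 genes reached below -0.36 or above 0.40.

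Trp53inp1, a nuclear protein that promotes p53 phosphorylation and autophagy, was the scarcest of the 10, with counts of 47 to 138 per library. It stood at 4.63, 6.28 and 4.38 CPM in controls and 7.52, 5.30 and 5.73 CPM under stress. Low-dose libraries had 6.91, 3.22 and 2.83 CPM and high-dose libraries 7.67, 3.41 and 6.33 CPM. Within each dose group the libraries spanned more than the group means differed, and all groups overlapped. Stress differed from control by 0.28 (SE 0.36), low dose from stress by -0.52 (SE 0.37, adjusted p = 0.537) and high dose from low dose by 0.42 (SE 0.37). Without low-dose replicate 1 the last pair was -1.03 (adjusted p = 0.0749 by edgeR) and 0.94 (adjusted p = 0.142). Leaving out each library in turn moved the difference of stress from control between 0.11 and 0.46.

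Cdkn1a encodes the cyclin-dependent kinase inhibitor p21, the main arm through which p53 stops the cell cycle, and has with Ccng1 the fewest mismatches among the sequences above. Control libraries had 65.9, 60.3 and 73.1 CPM and stress libraries 45.8, 75.6 and 41.6 CPM. Low-dose libraries had 56.5, 90.9 and 114 CPM and high-dose libraries 52.1, 82.7 and 56.5 CPM. The controls lay close together, stress replicate 2 stood well above the other stress libraries, and low-dose replicate 3 was the highest of all, so that low dose and stress overlapped. Group means were 66.5 ± 6.43 (control), 54.3 ± 18.5 (stress), 87.1 ± 28.9 (low dose) and 63.7 ± 16.5 CPM (high dose; SD, n = 3 each).

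Low dose differed from stress by 0.68 for Cdkn1a (SE 0.28, 95% interval 0.06 to 1.297), with an adjusted p of 0.350 by edgeR's quasi-likelihood test. Without low-dose replicate 1 it was 0.91 with an adjusted p of 0.0536, and without low-dose replicate 3 it was 0.44. With stress replicate 2 left out it was 0.99. Stress differed from control by -0.29 (SE 0.28), low dose from control by 0.39 (SE 0.28), high dose from stress by 0.23 (SE 0.28) and high dose from low dose by -0.45 (SE 0.28, interval -1.06 to 0.17). With stress replicate 2 left out, stress differed from control by -0.60, and with stress replicate 3 left out by -0.13. With 1 library left out, low dose against control ran from 0.15 to 0.62, high dose against stress from -0.00134 to 0.54 and high dose against low dose from -0.68 to -0.21.

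Sesn1, a sestrin that inhibits growth signalling through mTORC1, had the largest difference between stress and control. Control libraries stood at 23.6, 23.6 and 20.4 CPM and stress libraries at 36.3, 27.5 and 46.7 CPM. Low-dose libraries had 38.5, 22.9 and 14.0 CPM and high-dose libraries 37.0, 16.7 and 29.7 CPM. Every stress library was above every control library, and the dose groups reached both higher and lower than the controls. The difference of stress from control was 0.71 (SE 0.36, 95% interval -0.08 to 1.49, adjusted p = 0.9999), that of low dose from stress -0.55 (SE 0.36, adjusted p = 0.505) and that of high dose from stress -0.40 (SE 0.35). Low dose against stress was -0.99 without low-dose replicate 1 (adjusted p = 0.0881 by edgeR) and -0.26 without low-dose replicate 3, and high dose against stress was -0.14 without high-dose replicate 2.

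Phlda3, a pleckstrin homology protein that inhibits the kinase Akt, stood at 140, 124 and 117 CPM in controls and 109, 124 and 100 CPM under stress. Low-dose libraries had 133, 135 and 96.8 CPM and high-dose libraries 126, 118 and 128 CPM. The groups overlapped, with low-dose replicate 3 the lowest library. Stress differed from control by -0.19 (SE 0.13) and high dose from stress by 0.15 (SE 0.13).

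Eda2r, a receptor of the tumour necrosis factor receptor family that binds ectodysplasin A2, varied most, 4.75-fold over the 12 libraries, with counts of 65 to 331. It stood at 7.14, 9.24 and 4.98 CPM in controls and 11.3, 11.0 and 10.02 CPM under stress. Low-dose libraries had 18.6, 5.12 and 3.91 CPM and high-dose libraries 14.1, 4.64 and 13.7 CPM. Every stress library was above every control library, and the stress libraries lay close together, while low-dose replicate 1 was far above the other low-dose libraries and high-dose replicate 2 far below the other high-dose libraries. Stress differed from control by 0.59 (SE 0.56, 95% interval -0.64 to 1.82) and high dose from control by 0.60 (SE 0.56). Low dose differed from stress by -0.22 (SE 0.55), by -1.25 without low-dose replicate 1 (adjusted p = 0.0855 by edgeR) and by 0.14 without low-dose replicate 3.

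Aen, an exonuclease that promotes apoptosis, stood at 38.8, 33.6 and 37.1 CPM in controls and 38.3, 35.8 and 37.3 CPM under stress. Low-dose libraries had 38.0, 47.1 and 49.6 CPM and high-dose libraries 41.5, 47.1 and 37.9 CPM. In CPM low-dose replicates 2 and 3 were above all control and stress libraries, and low-dose replicate 1 was among them. In TPM low-dose replicate 2 had 14.49, below control replicate 1 (15.25) and stress replicate 1 (14.86). The group means were 15.5 TPM at the low dose, 14.3 under stress and 14.1 in controls. Low dose differed from stress by 0.27 (SE 0.12, 95% interval 0.01 to 0.53, adjusted p = 0.363) and from control by 0.30 (SE 0.12, interval 0.04 to 0.56, adjusted p = 0.344), by edgeR. Without low-dose replicate 1 these were 0.38 (adjusted p = 0.0530) and 0.40 (adjusted p = 0.0571). High dose differed from stress by 0.18 (SE 0.12) and from control by 0.21 (SE 0.12). Low-dose replicates 2 and 3 were also the libraries whose deviation from the mean library fell most with transcript length, at r = -0.56 and -0.19 across genes where the other 10 libraries had -0.05 to 0.33, and Aen had r = -0.79 with that measure over the 12 libraries. With the length trend removed low dose differed from stress by 0.41 (adjusted p = 0.554) and from control by 0.45 (adjusted p = 0.621).

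**Figure D2:**
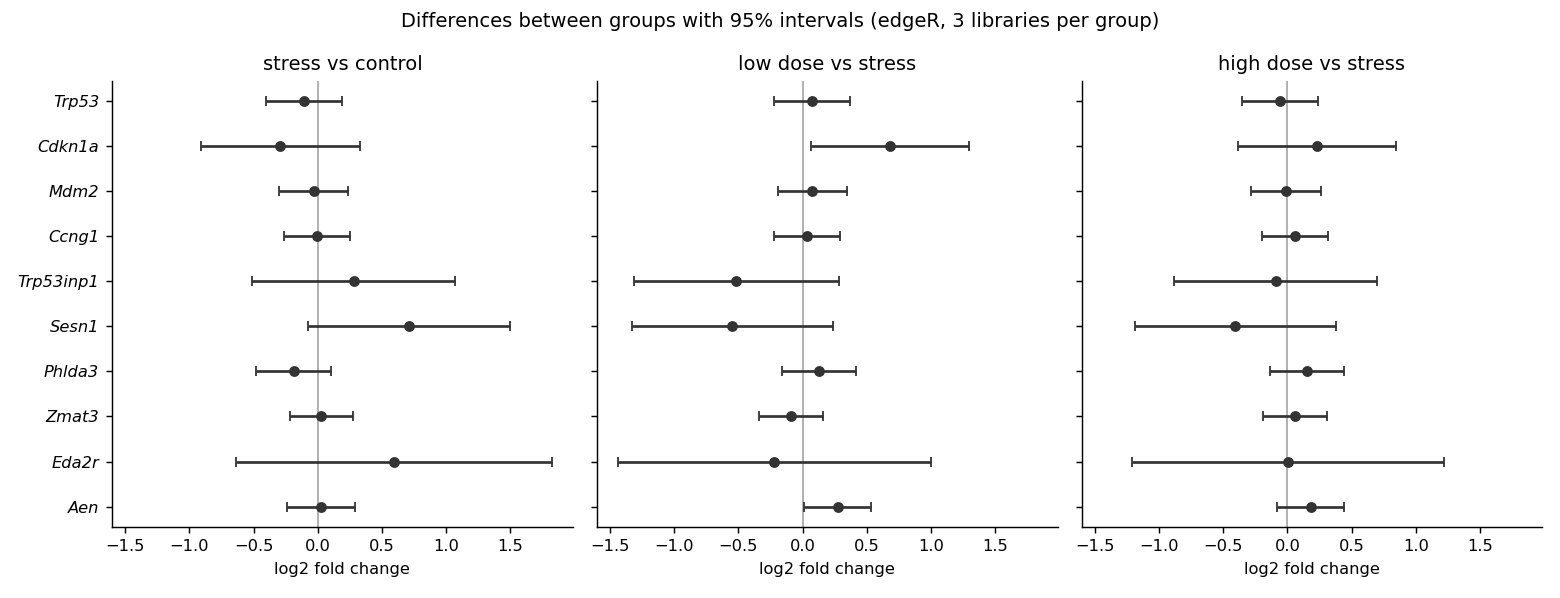
Log2 fold change of each of the 10 genes between stress and control, low dose and stress, and high dose and stress. Points are edgeR's estimates and bars their 95% intervals, and all intervals cross 0 except those of Cdkn1a and Aen between low dose and stress, at adjusted p-values of 0.350 and 0.363.

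Libraries of 2 groups failed to overlap for 3 of the 10 genes between stress and control, Sesn1 and Eda2r higher and Trp53 lower, where 14.1% of all genes did not overlap (7.08% higher and 7.02% lower). In the other comparisons 0 of the 10 were separated, beside 11.9% of all genes between low dose and stress, 5.75% between high dose and stress, 7.34% between the doses, 17.4% between low dose and control and 8.7% between high dose and control.

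Markers of other cell types were also separated between stress and control. The summed level of 8 fibroblast markers, collagens and growth factor receptors among them, was 2247 to 3116 TPM in controls, 4023 to 5055 under stress, 1913 to 7195 at the low dose and 1650 to 6616 at the high dose, and none of the 8 was at 0 in any library. Most of that sum was Col3a1, and one by one 3 of the 8 markers were separated, all higher under stress. The 6 skin keratinocyte markers summed to 417 to 480 TPM in controls, 227 to 383 under stress, 255 to 353 at the low dose and 249 to 484 at the high dose. Nearly all of it was Krt14, while Krt5 was at 0 in 11 libraries. The 11 markers of colorectal epithelium summed to 71.3 to 96.3 TPM in controls, 48.7 to 66.6 under stress, 59.1 to 101 at the low dose and 60.6 to 77.4 at the high dose. Nearly all of this sum was Sox9, at 46.2 to 92.4 TPM, so it says little of the epithelium as such. Across the 12 libraries the fibroblast score, the mean centred log2 CPM of these markers, had r = 0.70 with Sesn1, r = 0.66 with Eda2r and r = -0.68 with Trp53, as a description. With this score as a covariate, a choice made after seeing the data, stress differed from control by 0.23 (SE 0.22) for Sesn1. For Eda2r this was 0.06 (SE 0.44) and for Trp53 0.02 (SE 0.12). Between low dose and stress the same covariate gave larger differences. These were -0.76 for Sesn1 (-0.55 without it), -0.66 for Eda2r (-0.22) and 0.10 for Trp53 (0.07). For Cdkn1a it gave 0.76 (0.68 without it), with an adjusted p of 0.142 by edgeR. The 8 macrophage markers summed to 1146 to 1303 TPM in controls, 1136 to 1733 under stress, 990 to 2128 at the low dose and 1085 to 2020 at the high dose. Their score had r = -0.83 with Trp53 and r = 0.77 with Eda2r. The keratinocyte score rested on the 2 markers tested and had r = -0.72 with Sesn1 and 0.64 with Cdkn1a, and the epithelial score, on 3 markers tested, had r = -0.75 with Sesn1 and 0.74 with Cdkn1a. The part of any of these cell types in the levels of these genes was not tested beyond these values.

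The 10 genes differed in how much they varied from library to library. The coefficient of variation over all 12 libraries was 47.9% for Eda2r, 34.9% for Sesn1, 31.2% for Trp53inp1 and 30.4% for Cdkn1a. Genes of like level had medians of 17.7%, 12.9%, 22.3% and 11.4%. The other 6 genes, Trp53 with 11.0% among them, lay between 7.81% and 12.6%, and genes of the level of Trp53 had a median of 12.3%.

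Of the 10 genes 6 fell into opposed patterns across the libraries, picked out from the correlations themselves. Of their 45 pairs, 21 had a positive and 24 a negative Pearson r of log2 CPM over the 12 libraries, with a median of -0.21. Ccng1, Sesn1, Trp53inp1 and Eda2r went together, with r from 0.63 to 0.92 in their 6 pairs and the highest between Trp53inp1 and Eda2r. Each of these 4 ran against both Trp53 and Cdkn1a, with r from -0.90 to -0.59 in the 8 pairs. Some of these were weaker on other scales: on log2(TPM + 1) Trp53 had -0.40 with Ccng1, -0.38 with Trp53inp1 and -0.48 with Sesn1, and Cdkn1a had -0.38 with Ccng1 without the 3 muscle-rich libraries. Ccng1 and Sesn1 had 0.63, and 0.37 without the 2 farthest libraries. Mdm2, Phlda3, Zmat3 and Aen were not counted in either pattern, though some of their r were as large. Aen had 0.65 with Cdkn1a, -0.73 with Trp53inp1 and -0.62 with Eda2r, where Spearman's rho was 0.38, -0.36 and -0.35. With group means removed these r were 0.63, -0.82 and -0.90, and Aen had 0.74 with Trp53. Zmat3 had -0.62 with Cdkn1a and 0.62 with Sesn1. Trp53 and Mdm2 had 0.22, and Cdkn1a and Phlda3 -0.02. These r are descriptions of 12 points that share library, depth scaling, RNA composition and cell mixture.

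Cdkn1a and Sesn1, which differ by their role in the cell cycle and in growth signalling, were opposed at r = -0.90 (Spearman's rho -0.90). The value was -0.94 with group means removed, -0.84 without the 3 muscle-rich libraries and -0.79 without the 2 libraries farthest from the median of Cdkn1a. Only 0.253% of all genes tested had a lower r with Cdkn1a than Sesn1 had. The library with the most Cdkn1a, low-dose replicate 3, had the least Sesn1, and the library with the least Cdkn1a, stress replicate 3, had the most Sesn1.

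Trp53 and Eda2r were opposed likewise, at r = -0.90 (rho -0.91), -0.91 with group means removed and -0.97 without the muscle-rich libraries. On the log2(TPM + 1) scale this was -0.62, so its size depended on the scale. Low-dose replicate 1 had the least Trp53 and the most Eda2r. Trp53 and Cdkn1a had r = 0.61 (rho 0.69), and 0.27 on the log2(TPM + 1) scale. The median r of the other 9 genes was -0.45 with Trp53 and -0.59 with Cdkn1a, where all genes tested had medians of -0.008 and -0.01.

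**Figure D3:**
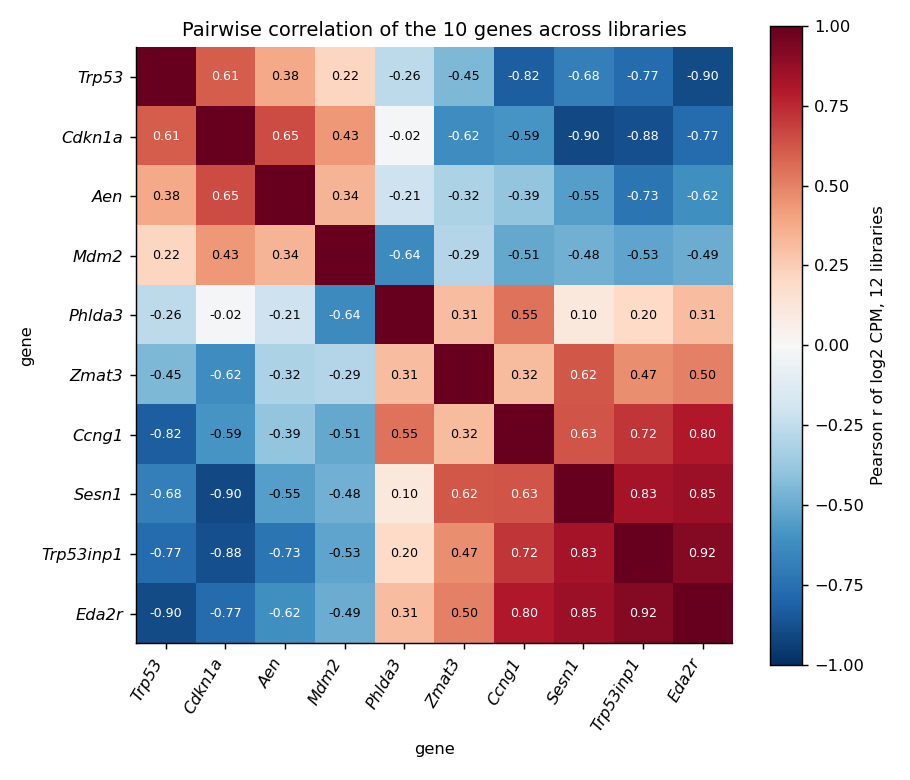
Pearson r of log2 CPM over the 12 libraries for each pair of the 10 genes. Ccng1, Sesn1, Trp53inp1 and Eda2r form a positive block (0.63 to 0.92) that is negative with Trp53 and Cdkn1a (-0.90 to -0.59).

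**Figure D4:**
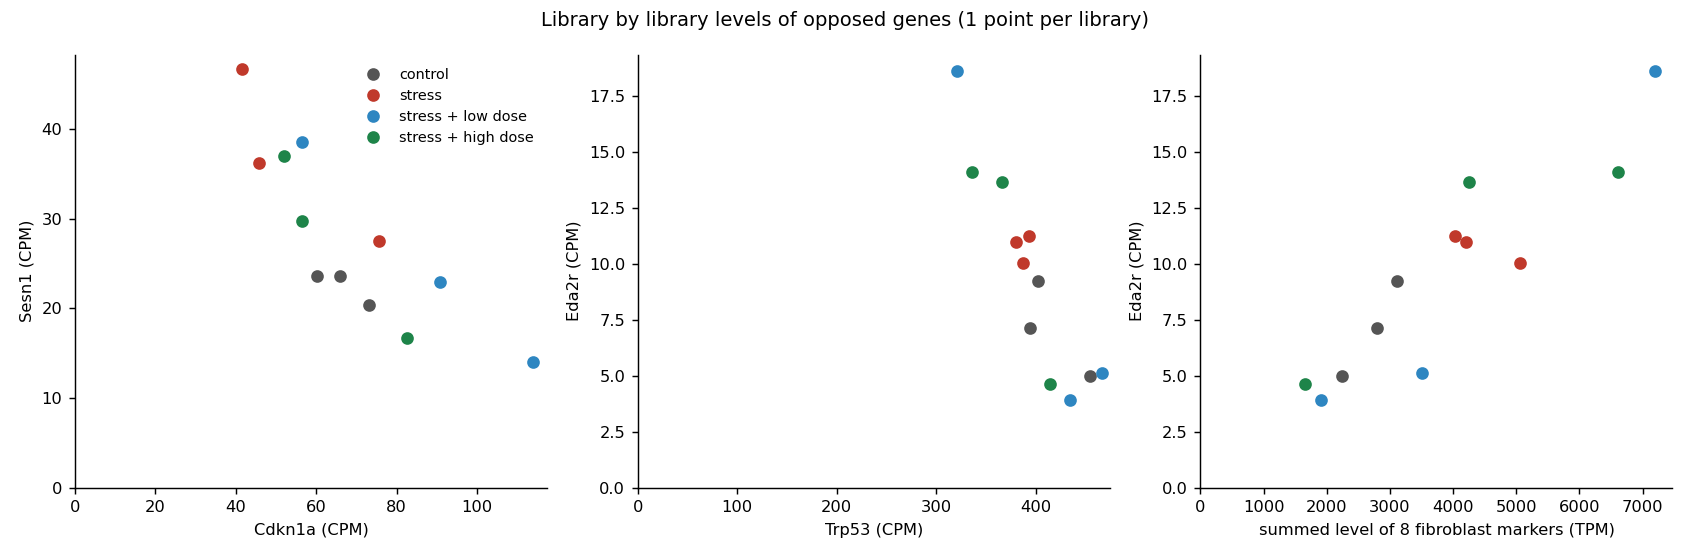
Sesn1 against Cdkn1a and Eda2r against Trp53, in CPM, and Eda2r against the summed level of 8 fibroblast markers in TPM, with 1 point per library coloured by group, on axes from 0. The first and the second panel slope down (r = -0.90 in each on the log2 CPM scale), and the libraries of each dose group lie far apart along the slope.

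The genes most like Trp53 across the 12 libraries, among 12291 candidates, were Reep4 (r = 0.96), Cops7b (0.95) and Pabpn1 (0.93). Those most like Cdkn1a were Map2k1 (r = 0.97), Sdc4 (0.97) and Ctsl (0.96). Of the 9 targets Cdkn1a had the highest r with Trp53, 0.61, which was above that of 90.3% of all genes.

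Other genes of the p53 pathway were taken from lists of regulators and of further targets, 63 genes tested in all. By edgeR, DESeq2 and limma-voom 0 of the 63 passed in any comparison. By edgeR 4 of them (6.35%) had an unadjusted p under 0.05 in the joint test over the 4 groups, where 6.53% of all genes did. Of the regulators, 16 of 19 were tested, and those with the smallest joint p were Rpl5 and Rpl11, ribosomal proteins that bind Mdm2, and Ep300, an acetyltransferase of p53. Low dose differed from stress by 0.39 (SE 0.16) for Rpl5, 0.33 (SE 0.14) for Rpl11 and -0.38 (SE 0.14) for Ep300. Low-dose replicate 2 had 1757 CPM of Rpl5 and low-dose replicate 3 had 1346, above the 1002 to 1104 CPM of the other libraries. These are the libraries with the strongest fall along transcript length, and with the length trend removed low dose differed from stress by 0.22 for Rpl5, 0.12 for Rpl11 and -0.14 for Ep300.

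Of 10 arrest targets 8 were tested. Psrc1, a microtubule-associated protein of the spindle, stood at 9.39, 4.90 and 9.85 CPM under stress and between 4.31 and 6.79 CPM in all other libraries. Stress differed from control by 0.46 (SE 0.25) and low dose from stress by -0.84 (SE 0.25, adjusted p = 0.296 by edgeR) for Psrc1. Plk2, a polo-like kinase, differed by -0.38 (SE 0.24) between stress and control, and Ckap2, a spindle protein, by -0.32 (SE 0.15) between low dose and control.

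Of 14 apoptosis targets 13 were tested. Bax, which permeabilizes the outer mitochondrial membrane, stood at 42.9, 72.8 and 53.1 CPM in the low-dose libraries and at 43.7, 38.9 and 40.8 CPM under stress, a difference of 0.45 (SE 0.17, adjusted p = 0.316 by edgeR). Rps27l, a ribosomal protein homologue induced by p53, differed by 0.43 (SE 0.13) and Siva1, a pro-apoptotic protein, by 0.44 (SE 0.19) in the same comparison. Without low-dose replicate 1 the adjusted p between low dose and stress was 0.0304 for Bax and Siva1, 0.0250 for Rps27l, 0.0261 for Rpl5, 0.0294 for Rpl11 and 0.0222 for Ep300, in a fit that called 1244 genes. With the length trend removed the differences were 0.20 for Bax, 0.07 for Rps27l and 0.16 for Siva1. In the fit without low-dose replicate 1, 8 of 64 further pathway genes passed between low dose and stress, where 9.12% of all genes did, and 6 of 64 between low dose and control, where 4.78% did.

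Of the repair targets 7 of 8 were tested, and low dose differed from control by -0.38 (SE 0.13) for Polk, a bypass polymerase, and by -0.25 (SE 0.15) for Ercc5, a nuclease of excision repair. Mgmt, which removes alkyl groups from DNA, differed by -0.46 (SE 0.21) between high and low dose. All 12 metabolic and redox targets were tested, and low dose differed from stress by 0.31 (SE 0.12) for Gpx1, a glutathione peroxidase, 0.34 (SE 0.17) for Ak1, an adenylate kinase, and -0.47 (SE 0.18) for Pltp, a phospholipid transfer protein. With the length trend removed these were 0.10 for Gpx1, 0.27 for Ak1 and -0.56 for Pltp. All 7 further feedback targets were tested, and low dose differed from stress by -0.36 (SE 0.12) for Pml, the scaffold of nuclear bodies, and by -0.20 (SE 0.14) for Ppm1d, a phosphatase of p53. With the length trend removed these were -0.24 for Pml and -0.20 for Ppm1d. Rchy1, a ubiquitin ligase of p53, differed by 0.28 (SE 0.10) between low dose and control.

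Genes of cell division that p21 represses through the DREAM and RB complexes were taken as the readout downstream of Cdkn1a. All 24 were tested and 0 passed in any comparison by edgeR, DESeq2 or limma-voom, with 1 of them at an unadjusted p under 0.05 in the joint test. Under stress 21 of 24 were lower than in controls, with a median of -0.11, as were 20 of 24 at the low dose (median -0.10) and 20 of 24 at the high dose (median -0.10), where 51.7%, 50.5% and 50.5% of all genes were higher. The score of the 24 genes, their mean centred log2 CPM, was 0.07, 0.14 and 0.09 in controls and 0.02, -0.31 and 0.22 under stress. It was -0.41, -0.09 and 0.32 at the low dose and -0.24, 0.23 and -0.04 at the high dose. In each of these 3 groups 1 library lay above all controls and the others below them, and the comparisons share the control libraries. The 24 genes share their regulation, so they are not 24 independent observations, and these counts of direction were not tested. Mki67, the proliferation antigen Ki-67, differed by -0.61 (SE 0.19) and Top2a, topoisomerase II alpha, by -0.43 (SE 0.21) between low dose and control, and E2f1, a transcription factor of S phase entry, by -0.32 (SE 0.15) between stress and control. Across the 12 libraries the score had r = 0.23 with Cdkn1a, 0.63 with Trp53 and -0.70 with Eda2r.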

How the data were processed

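The submitters' processing notes name cutadapt 1.9, HISAT2 2.0.4, StringTie 1.3.4d, DESeq2, edgeR and build GRCm38.p6; the labels' protocols describe poly(A) selection and stranded paired-end libraries. The annotation, the counting options and their strand setting are not given in the sources used here. The deposited estimated counts per gene carry no further scaling, and 11.7% to 12.5% of the authors' values per library were not whole. Rounding had been planned for estimated counts, so these values were rounded. TPM, as deposited, is the authors' scaling for length and library; FPKM, as deposited, is their other such scaling and served for unit checks.

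Genes were kept by filterByExpr at a minimum count of 10 (13453 genes). The robust quasi-likelihood test of edgeR 4.0.16 (R 4.3.3) with TMM scaling was run on 12 libraries in 1 model of 4 groups (8 residual degrees of freedom), with Benjamini-Hochberg adjustment and a threshold of 0.05. Pearson r used log2 CPM with a prior count of 2. Alternatives were DESeq2 1.42.0, limma 3.58.1 voom with quality weights, RLE factors, other filters, only the libraries compared, unrounded values, the replicate number as a block, a muscle score, no muscle-rich libraries, removal of the trend with transcript length, and each library left out. A fibroblast score as covariate, and the limit of 3 mismatches, were chosen after seeing the data. The pipeline was tested on simulated data.

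The 10 genes, the lists and the tests were chosen with earlier results of these data known. All 10 genes are named. From each further list the 3 genes with the smallest joint p and a mean of at least 1 TPM are named, and for likeness the 3 with the highest r. No rule set beforehand which comparison is printed for a gene of the further lists. It is often that with the largest difference of the 6. Sequences are RefSeq's, matched by symbol. The coding status and positions come from annotation of build GRCm38.p6. Pairs of libraries within a group had dispersion indices (chi-square of counts per gene) of 5.58 to 65.7, so none agreed within counting noise.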

Additional observations from a re-analysis of the deposited data

How the results depend on the processing

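The 60 log2 fold changes of the 10 genes were recomputed under 24 other settings. Of the 1440 values 1344 kept their direction, 96 did not, and 0 passed the threshold; the smallest adjusted p was 0.0530 (Aen, low dose against stress without low-dose replicate 1, edgeR). Without that library edgeR called 1244 genes between low dose and stress, 99 between the doses and 652 between low dose and control, and 0 in each with all libraries. DESeq2 called 95, 5 and 71 in these comparisons. Among the 96, the largest value in the first fit was 0.60 (Eda2r, high dose against control), the largest size in another setting was 0.66 (Eda2r, low dose against control without low-dose replicate 1), and the smallest adjusted p was 0.327. The changes of sign in differences printed above follow. With the fibroblast score as covariate the values were, between stress and control, 0.0223 for Trp53, 0.00310 for Cdkn1a and -0.0922 for Trp53inp1, and -0.0562 for Eda2r between high dose and control. Without the 3 muscle-rich libraries they were 0.14 for Eda2r (low dose against stress) and -0.00126 for Cdkn1a (high dose against stress). With the length trend removed they were -0.0275 for Trp53 and 0.16 for Zmat3 between low dose and stress, and -0.0655 for Zmat3 between the doses. With 1 library left out, low dose against stress ran from -0.0267 to 0.219 for Trp53, from -1.25 to 0.143 for Eda2r and from -0.149 to 0.0206 for Zmat3, and high dose against stress from -0.141 to 0.0117 for Trp53 and from -0.00134 to 0.543 for Cdkn1a. The cause of these shifts was not tested.

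With the replicate number as a block, 0 of the 10 genes were called in any comparison. Nothing in the labels pairs the libraries: same-numbered libraries correlated at -0.45 to 0.42 over 18 pairs, and 5 of 12 correlated best with their own number.

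With 3 libraries per group, the 95% interval of Eda2r between stress and control ran from -0.64 to 1.82, which limits what can be said of that gene.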

Other observations

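A pair of p53 targets outside the 10 genes is named here, chosen after their values were seen. Pmaip1 (Noxa), a BH3-only protein that promotes apoptosis, stood at 84.6, 88.1 and 106 CPM in controls and at 29.7, 78.7 and 31.3 CPM under stress. These groups did not overlap, as was so for 7.02% of all genes in the same direction. The log2 fold change was -0.996 (SE 0.49, adjusted p = 0.9999 by edgeR), -1.61 without stress replicate 2 and -0.49 with the fibroblast score as covariate. Its low-dose libraries had 27.3, 54.7 and 101 CPM and its high-dose libraries 37.1, 80.3 and 65.9 CPM. Stress replicate 2 was the highest of the stress libraries for Pmaip1, as it was for Cdkn1a.

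Gdf15, a secreted cytokine induced by p53 and by the integrated stress response, stood at 2.14, 13.3 and 7.77 CPM in the low-dose libraries and at 3.17, 4.35 and 3.20 CPM in the high-dose libraries. The log2 fold change of high from low dose was -1.11 (SE 0.55, adjusted p = 0.758 by edgeR), from -1.56 without low-dose replicate 1 to -0.47 without low-dose replicate 2, and the groups overlapped.

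The summed level of the 10 genes was 845 to 880 TPM in the control libraries and 768 to 838 TPM in the other 9, most of it Trp53 and Phlda3. This sum was not tested. Gene by gene, 5 of the 10 were higher and 5 lower under stress than in controls.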
